A study of Rattus norvegicus with 17 samples.

Results

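The p53 target and apoptosis genes are a group of 38 names chosen as known targets of the transcription factor p53 or as parts of the cell death machinery. Of these names, 32 were among the 17251 genes listed for the meibomian gland (MG) of rats, and all 32 were tested. Zmat3, Bbc3, Pidd1, Mcl1 and Tnfrsf10b were not analysed here, and Trp53inp1 is another name of Tp53inp1, which was listed. RNA of the MG was sequenced from 17 female rats aged 10 to 12 weeks. The Control WT group held 4 wild-type rats and the Control P1.hMR group 5 transgenic rats, none of them exposed to UVB. The UVB WT group held 3 wild-type rats and the UVB P1.hMR group 5 transgenic rats whose eyelids had been irradiated with UVB for 5 days, as a model of ocular rosacea. P1.hMR rats carry the human NR3C2 gene, which encodes the mineralocorticoid receptor (MR), under its proximal P1 promoter, and the transgene is expressed in every tissue that uses this promoter and not in the MG alone. The study asked how UVB changes the MG and whether excess MR alters that response.

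The protein p53 is stabilised when DNA is damaged, for example by ultraviolet light, and binds the regulatory regions of its target genes. Some targets stop the cell cycle, some restrain p53 itself, and others open the mitochondrial or the death receptor route to apoptosis. In the skin these genes are known for the response to sunlight, while the meibocytes of the MG also die as part of normal secretion, when they release their lipid.

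Values were deposited as TPM, a unit of transcript abundance scaled by gene length and by the total of each sample. Levels can therefore be compared between genes, but the values do not hold the depth of each rat. The study's methods give only a range of mapped reads. Labels and data went together for the transgene, which was listed at 0 TPM in all WT rats and at 5.31 to 9.31 TPM in the P1.hMR rats. The 14 meibocyte markers summed to 40370 to 56812 TPM in every rat, and hair and muscle markers were also present in all groups. In bulk tissue, fewer cells of a type and less RNA per cell cannot be told apart.

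The regions before the start sites are shown for Sfn, the gene of the group with the highest log2 fold change after UVB on log2(TPM + 1), and for the 4 genes of the group that both passed the test after UVB and carry an exact p53 half-site there. This half-site is the decamer RRRCWWGYYY, where R is A or G, W is A or T and Y is C or T. Each is the stretch of 250 bases before the start in RefSeq, build GRCr8, 5′ to 3′ along the gene, with the decamer in capitals. The TPM values were made on build rn7, so these coordinates do not belong to the deposited table.
Sfn (chr5:151111855-151112104, minus strand): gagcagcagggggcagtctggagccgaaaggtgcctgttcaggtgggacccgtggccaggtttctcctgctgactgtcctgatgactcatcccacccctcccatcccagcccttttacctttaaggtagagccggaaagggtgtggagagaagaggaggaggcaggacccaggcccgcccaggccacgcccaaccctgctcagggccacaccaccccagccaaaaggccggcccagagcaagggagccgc
Ccng1 (chr10:25684877-25685126, minus strand): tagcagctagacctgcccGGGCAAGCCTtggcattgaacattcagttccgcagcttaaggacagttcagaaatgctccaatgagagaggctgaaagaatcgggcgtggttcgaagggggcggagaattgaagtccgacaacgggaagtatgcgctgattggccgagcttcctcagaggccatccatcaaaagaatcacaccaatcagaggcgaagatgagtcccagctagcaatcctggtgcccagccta
Cdkn1a (chr20:7150682-7150931, plus strand): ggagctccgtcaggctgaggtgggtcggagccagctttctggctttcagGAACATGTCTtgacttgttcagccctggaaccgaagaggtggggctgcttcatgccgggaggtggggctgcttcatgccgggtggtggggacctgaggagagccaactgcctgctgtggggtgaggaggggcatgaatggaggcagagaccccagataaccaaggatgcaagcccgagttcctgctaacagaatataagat
Ei24 (chr8:44699372-44699621, minus strand): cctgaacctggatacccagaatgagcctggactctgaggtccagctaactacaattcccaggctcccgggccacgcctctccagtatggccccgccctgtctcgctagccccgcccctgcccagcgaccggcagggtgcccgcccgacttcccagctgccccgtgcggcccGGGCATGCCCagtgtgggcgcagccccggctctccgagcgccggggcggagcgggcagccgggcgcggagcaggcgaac
Sesn1 (chr20:46948469-46948718, plus strand): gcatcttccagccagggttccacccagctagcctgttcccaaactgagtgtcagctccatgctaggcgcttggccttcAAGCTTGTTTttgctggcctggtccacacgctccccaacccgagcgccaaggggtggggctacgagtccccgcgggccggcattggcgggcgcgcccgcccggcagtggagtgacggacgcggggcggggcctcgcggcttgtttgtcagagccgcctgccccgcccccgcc
RefSeq promoters were found for 28 of the 32 genes. Of these, 7 (25%) held the exact half-site decamer, against 1782 of 27457 promoters of all genes (6.49%). The group was chosen in part as known p53 targets, so its share is not a result of these data. The 27457 promoters also include genes that were not listed here. The decamer equals its own reverse complement in form, so each match stands for both strands. The median GC content was 64.8% for the 28 promoters and 52% for all. The matched genes were Aen, Gadd45a, Ei24, Pml, Ccng1, Cdkn1a and Sesn1. They did not share a direction after UVB: Ccng1 and Cdkn1a were higher in UVB than in control P1.hMR rats and Ei24 and Sesn1 lower, while Aen, Gadd45a and Pml did not pass the test. A match describes the letters in this window and is not a measured binding site.

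Without UVB the group spanned a wide range of levels. Perp, a membrane protein of desmosomes and a p53 target, stood highest at 1085 TPM on average over the 9 control rats, above 99.4% of the listed genes. It was followed by Cdkn1a, the inhibitor of cyclin-dependent kinases known as p21, at 184 TPM, Ei24, a protein of the endoplasmic reticulum, at 173 TPM and Sfn, the epithelial 14-3-3 sigma that holds cells in G2, at 156 TPM. At the other end, Fas, the death receptor for Fas ligand, lay at 2.09 TPM, Dram1, a lysosomal protein of autophagy, at 1.55 TPM, Pmaip1, the BH3-only killer protein NOXA, at 1.08 TPM and Gdf15, a secreted stress cytokine, at 0.684 TPM. The spread between rats of a group also differed among the genes. The residual standard deviation on the log2(TPM + 1) scale was 0.48 for Fas and 0.34 for Gdf15, and it was 0.07 for Perp and Triap1 and 0.06 for Ei24.

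**Figure D1:**
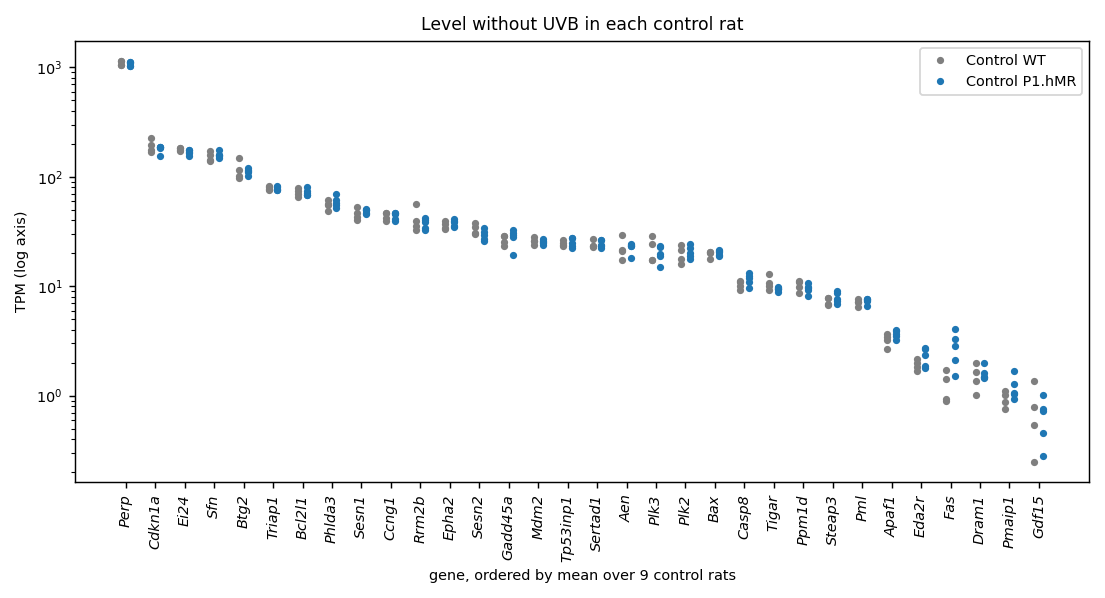
TPM on a log axis for each of the 32 genes in the 4 Control WT rats (grey) and the 5 Control P1.hMR rats (blue), 1 point per rat, ordered by the mean over the 9 control rats. Levels run from over 1000 TPM for Perp to under 2 TPM for Dram1, Pmaip1 and Gdf15, and the rats of both genotypes overlap for every gene.

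The response of WT rats to UVB was tested in a limma model on log2(TPM + 1) fitted to 13105 genes, with Benjamini-Hochberg adjustment over all of them. DEG stands for a gene with an adjusted p under 0.05 whose log2 fold change was 0.5 or more in size. After UVB, 2 of the 32 genes were DEGs in WT rats (6.25%), against 7.91% of all genes tested. Both, Sfn and Pmaip1, were higher (background of higher DEGs 3.92%). In P1.hMR rats 3 of the 32 were DEGs (9.38%), against 10.8% of all genes tested, namely Ccng1, Sfn and Pmaip1, and all 3 were higher (background 5.05%). No gene of the group was a DEG in the lower direction in either genotype, against 3.98% of all genes in WT and 5.71% in P1.hMR rats. At an unadjusted p under 0.05 in limma, 4 of the 32 were lower in each genotype (12.5%), against 17% of all genes in WT and 25.3% in P1.hMR rats.

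By the adjusted p alone, a count added after the results were seen, 7 of the 32 genes (21.9%) passed in WT rats, against 21.5% of all genes. Of these, 5 were higher (15.6%, background 11.2%) and 2 lower (6.25%, background 10.3%). In P1.hMR rats 15 passed (46.9%, background 39.1%), 11 of them higher (34.4%, background 18.5%) and 4 lower (12.5%, background 20.6%). All 7 genes that passed in WT rats were among the 15 of P1.hMR rats. The number of higher genes in WT rats was 3 in place of 5 without Control WT rat 3 and also without UVB WT rat 3. The groups of 3 and 4 WT rats are smaller than those of the P1.hMR rats, so the numbers passing in the genotypes are not a comparison of the responses.

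Across the 32 genes the median log2 fold change after UVB was 0.05 in WT rats, beside 0.01 over all genes tested, and 0.10 in P1.hMR rats, beside -0.02. In WT rats this median was 0.08 without Control WT rat 2 and 0.08 without UVB WT rat 2. In each genotype, 20 of the 32 genes had a log2 fold change above 0 (62.5%), against 51.2% of all genes in WT and 47.1% in P1.hMR rats. Averaged over the 32 genes, the log2 level centred on all rats lay between -0.07 and 0.02 in the Control P1.hMR rats and between 0.05 and 0.14 in the UVB P1.hMR rats, without overlap. For WT rats the same mean ran from -0.10 to -0.03 without UVB and from -0.03 to 0.05 with UVB, where the groups overlapped at their edge. UVB and control rats did not overlap for 9 of the 32 genes in WT (28.1%, background 26.6%), of which 7 were higher (background 14%) and 2 lower (background 12.6%). In P1.hMR rats they did not overlap for 8 genes (25%, background 27.2%), 6 of them higher (background 13.2%) and 2 lower (background 14%).

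**Figure D2:**
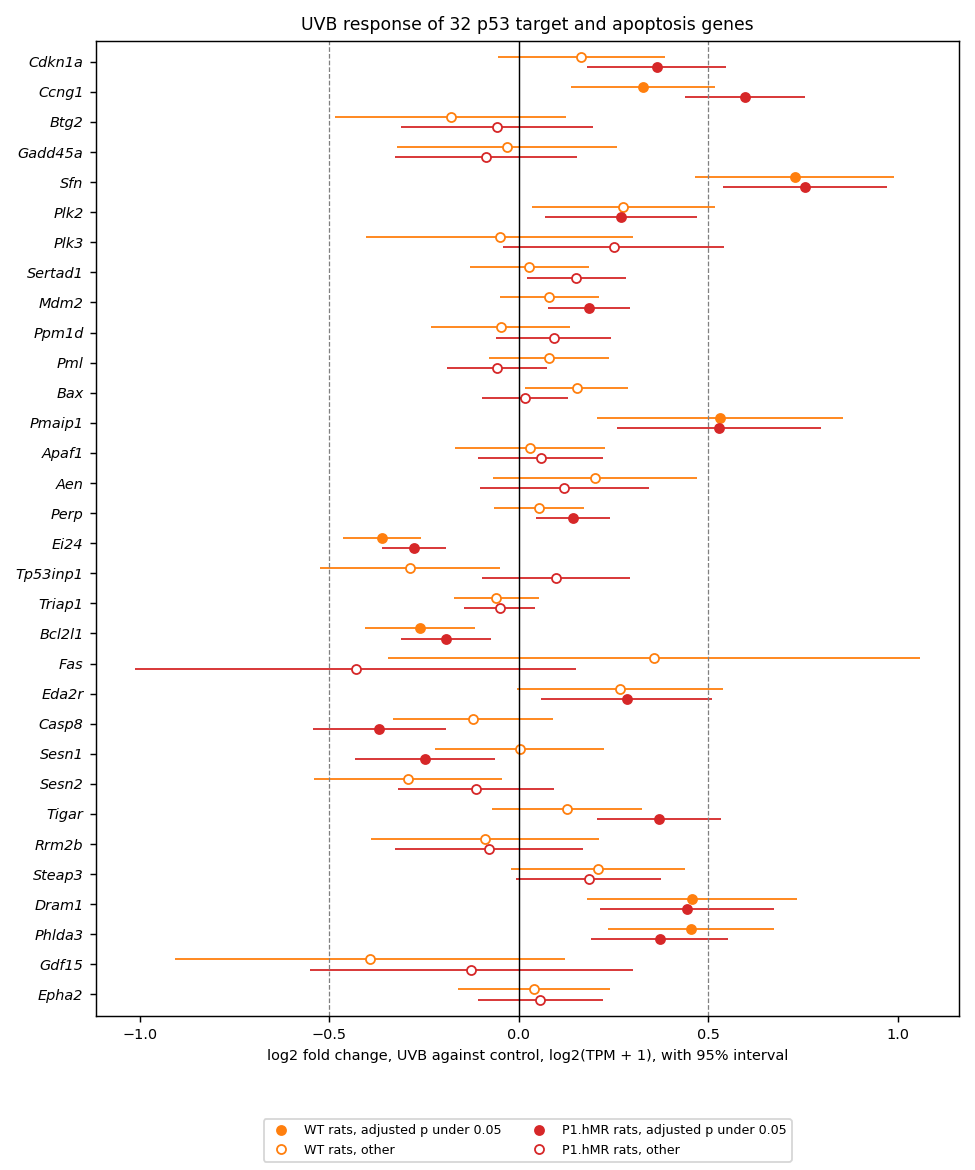
Log2 fold change of UVB against control on log2(TPM + 1), with its 95% interval, for the 32 genes in WT (orange) and P1.hMR rats (red). Filled points have an adjusted p under 0.05 in limma and dashed lines mark log2 fold changes of -0.5 and 0.5. Sfn and Pmaip1 lie above 0.5 in both genotypes and Ccng1 only in P1.hMR rats, while most other genes lie between the dashed lines.

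Among the genes of cell cycle arrest and p53 feedback, 11 of 12 names were listed, and Sfn had the highest log2 fold change. Its level was 143.48, 139.55, 172.2 and 158.6 TPM in Control WT and 279.78, 218.75 and 267.59 TPM in the UVB WT rats. In P1.hMR rats they were 147.36, 154.35, 159.62, 173.89 and 157.48 TPM without UVB and 219.94, 224.76, 301.02, 287.36 and 322.05 TPM after UVB. Every UVB rat was above every control rat in both genotypes. Sfn rose from 153 ± 14.95 TPM (SD, n = 4) in control to 255 ± 32.3 TPM (SD, n = 3) in UVB WT rats, by 0.73 in log2 (SE 0.12, adjusted p = 0.000977 in limma). In P1.hMR rats it rose from 159 ± 9.75 TPM (SD, n = 5) in control to 271 ± 46.2 TPM (SD, n = 5), by 0.75 in log2 (SE 0.10, adjusted p = 4.10e-05 in limma). The difference between the responses was 0.03, with a 95% interval from -0.31 to 0.37.

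Ccng1 encodes cyclin G1, a p53 target that acts on the MDM2 pathway. It was measured at 42.41, 46.65, 39.32 and 47.11 TPM in Control WT and at 53.49, 55.15 and 56.89 TPM in the UVB WT rats. The Control P1.hMR rats had 45.87, 46.47, 41.57, 46.27 and 39.18 TPM and the UVB P1.hMR rats 63.73, 78.52, 70.93, 58.16 and 63.78 TPM. UVB rats were above control rats in both genotypes, and the UVB P1.hMR rats were all above the UVB WT rats. The log2 fold change was 0.33 in WT rats (SE 0.09, adjusted p = 0.0168 in limma), below the fold threshold, and 0.60 in P1.hMR rats (SE 0.07, adjusted p = 2.02e-05 in limma). The genotypes differed by 0.27 under UVB (95% interval 0.09 to 0.45), but the adjusted p was 0.305, and the interaction of genotype and UVB was also 0.27 (95% interval 0.02 to 0.52, adjusted p = 0.711 in limma). Without UVB the genotypes differed by 0.00 (95% interval -0.17 to 0.17).

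Cdkn1a did not behave alike in its tests. It ranged from 153.53 to 188.78 TPM in the Control P1.hMR rats and from 203.92 to 256.18 TPM in the UVB P1.hMR rats, a log2 fold change of 0.36 (SE 0.09, adjusted p = 0.00341 in limma). In WT rats the ranges overlapped, 167.23 to 224.34 TPM without and 192.42 to 228.68 TPM with UVB, and the log2 fold change was 0.16 (adjusted p = 0.276). The difference between these responses, 0.20, had a 95% interval from -0.09 to 0.48. Mdm2, the ubiquitin ligase that degrades p53, rose by 0.18 in P1.hMR rats (adjusted p = 0.00887 in limma), from 23.64 to 27.03 TPM without UVB to 27.36 to 31.57 TPM with UVB, and Plk2, a polo-like kinase, by 0.27 (adjusted p = 0.0334). In WT rats the log2 fold changes of Mdm2 and Plk2 were 0.08 and 0.28, neither past the adjusted threshold. The remaining genes of this role, Btg2 and Gadd45a of growth arrest, the kinase Plk3, the cyclin D regulator Sertad1, the phosphatase Ppm1d and the nuclear body protein Pml, did not pass in either genotype, with log2 fold changes between -0.18 and 0.25.

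**Figure D3:**
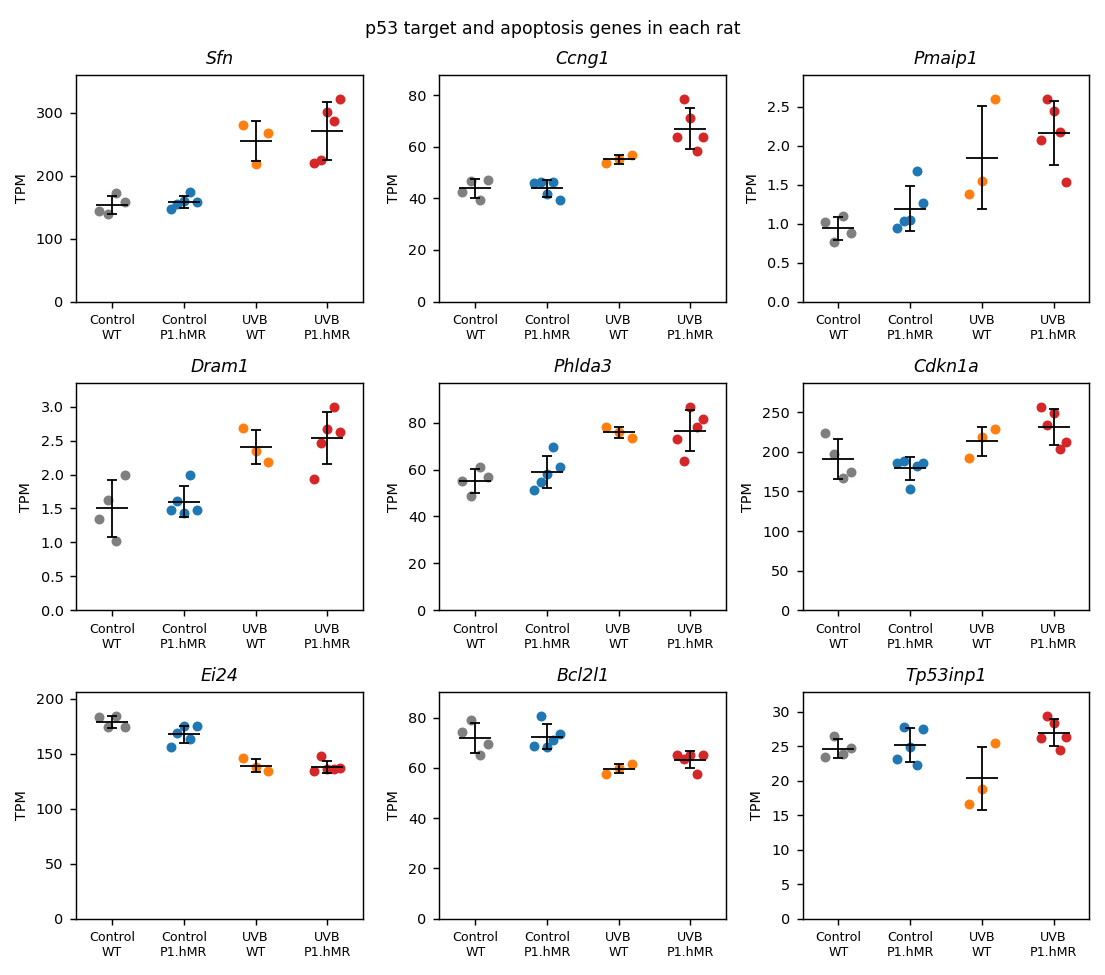
TPM of 9 genes in each rat, with the mean (long bar) and SD (error bars) per group, for Control WT (grey, n = 4), Control P1.hMR (blue, n = 5), UVB WT (orange, n = 3) and UVB P1.hMR rats (red, n = 5). Sfn and Ccng1 separate UVB from control rats in both genotypes, Ei24 and Bcl2l1 do so in the lower direction, and UVB WT rat 3 lies apart from the other UVB WT rats for Pmaip1 and Tp53inp1.

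On the mitochondrial route to apoptosis, 9 of 13 names were listed, and Pmaip1 was the DEG. It had 1.02, 0.76, 1.1 and 0.88 TPM in Control WT and 1.38, 1.55 and 2.6 TPM in the UVB WT rats. The Control P1.hMR rats had 0.94, 1.04, 1.05, 1.67 and 1.27 TPM and the UVB P1.hMR rats 2.07, 2.6, 2.45, 2.17 and 1.53 TPM. The WT groups did not overlap, while in P1.hMR rats the lowest UVB rat fell below the highest control rat. The log2 fold change was 0.53 in WT (SE 0.15, adjusted p = 0.0220 in limma) and 0.53 in P1.hMR rats (SE 0.13, adjusted p = 0.00389 in limma), on a scale that understates changes at levels this low. As a ratio of mean TPM, UVB over control, Pmaip1 stood at 1.96 in WT and 1.81 in P1.hMR rats, above Sfn at 1.66 and 1.71. These calls were close to the thresholds. In WT rats the call of Pmaip1 was lost without Control WT rat 2 and without UVB WT rat 3, and in P1.hMR rats without Control P1.hMR rat 1 and without UVB P1.hMR rat 2 or rat 3, over all alternatives with log2 fold changes from 0.35 to 0.86 in WT and from 0.48 to 0.81 in P1.hMR rats.

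Ei24 and Bcl2l1 moved the other way. Ei24, induced by p53 in other cells, was at 173.8 to 184.18 TPM in the Control WT and 134 to 145.62 TPM in the UVB WT rats, and at 156.33 to 174.98 TPM in the Control P1.hMR and 133.9 to 147.71 TPM in the UVB P1.hMR rats. All UVB rats were below all control rats, with log2 fold changes of -0.36 in WT (adjusted p = 0.000187 in limma) and -0.28 in P1.hMR rats (adjusted p = 7.30e-05 in limma). Bcl2l1, which encodes the survival protein BCL-XL, had log2 fold changes of -0.26 (adjusted p = 0.0129 in limma) and -0.19 (adjusted p = 0.0131), also without overlap. Perp was higher by 0.14 in P1.hMR rats (adjusted p = 0.0223 in limma) and had a log2 fold change of 0.05 in WT rats (adjusted p = 0.531). Bax, the pore-forming protein of the mitochondrial membrane, had log2 fold changes of 0.15 (adjusted p = 0.101) and 0.02 (adjusted p = 0.836). The caspase-9 activator Apaf1, the nuclease Aen and the small mitochondrial protein Triap1 ranged from -0.06 to 0.20 and did not pass.

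Tp53inp1, a nuclear protein that promotes p53-dependent death and autophagy, had the smallest unadjusted p of the group for genotype under UVB and for the interaction. Its values were 23.49, 26.5, 23.95 and 24.72 TPM in Control WT and 16.67, 18.79 and 25.53 TPM in the UVB WT rats. The Control P1.hMR rats had 23.16, 27.86, 24.92, 22.31 and 27.56 TPM and the UVB P1.hMR rats 26.18, 29.4, 28.43, 24.44 and 26.35 TPM. In the UVB WT group, 2 rats lay below every other rat and rat 3 lay among the controls. Under UVB the level was higher in P1.hMR than in WT rats by 0.41 on the log2 scale (95% interval 0.18 to 0.64), with an adjusted p of 0.236 in limma, and the interaction was 0.39 (95% interval 0.08 to 0.69, adjusted p = 0.704). Without UVB WT rat 3, which leaves 2 rats in that group, the genotype difference of Tp53inp1 under UVB was 0.58 and passed (adjusted p = 0.00783 in limma). Over all alternatives it ran from 0.28 to 0.58.

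Of the death receptor genes, 3 of 4 names were listed and none was a DEG. Fas had 0.94, 0.89, 1.42 and 1.72 TPM in the Control WT, 3.29, 1.51, 2.11, 4.09 and 2.86 TPM in the Control P1.hMR, 2.26, 0.71 and 3.1 TPM in the UVB WT and 0.92, 3.11, 1.86, 2.82 and 0.72 TPM in the UVB P1.hMR rats. It had the smallest unadjusted p of the group for genotype without UVB, where the log2 difference was 0.72 (95% interval 0.11 to 1.34, adjusted p = 0.998 in limma), and the genotypes overlapped. After UVB its log2 fold changes were 0.36 in WT and -0.43 in P1.hMR rats, both with intervals across 0. Eda2r, the receptor for ectodysplasin A2, was higher by 0.28 in P1.hMR rats (adjusted p = 0.0435 in limma), with 0.27 in WT rats (adjusted p = 0.149). Casp8, the initiator caspase of these receptors, was lower in P1.hMR rats, with a log2 fold change of -0.37 (adjusted p = 0.00238 in limma), and had -0.12 in WT rats (adjusted p = 0.417).

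All 6 genes of metabolism and redox control were listed. Dram1 ranged from 1.02 to 2 TPM in the Control WT and from 2.19 to 2.68 TPM in the UVB WT rats. Its log2 fold change was 0.46 (adjusted p = 0.0206 in limma) in WT and 0.44 (adjusted p = 0.00425 in limma) in P1.hMR rats, just under the fold threshold. The log2(TPM + 1) scale understates changes at levels this low, and the ratio of mean TPM, UVB over control, was 1.6 and 1.59. With a pseudocount of 0.1 Dram1 was a DEG in both genotypes. It was also called without Control WT rat 4 or UVB WT rat 3 in WT rats, and without UVB P1.hMR rat 1 in P1.hMR rats. Tigar, a phosphatase that slows glycolysis, ranged from 8.8 to 9.74 TPM in the Control P1.hMR and from 11.49 to 13.41 TPM in the UVB P1.hMR rats, a log2 fold change of 0.37 (adjusted p = 0.00141 in limma), beside 0.13 in WT rats (adjusted p = 0.350). Sesn1, a stress-induced inhibitor of mTORC1, was lower in P1.hMR rats, with -0.25 (adjusted p = 0.0327 in limma), and had 0.00 in WT rats (adjusted p = 0.991). Its relative Sesn2, the ribonucleotide reductase subunit Rrm2b and the iron reductase Steap3 ranged from -0.29 to 0.21 and did not pass. Among the genes of signalling, Phlda3, a repressor of AKT, was at 48.62 to 60.96 TPM in the Control WT and 73.62 to 78.07 TPM in the UVB WT rats. The P1.hMR groups overlapped for Phlda3, at 51.39 to 69.49 TPM without and 63.59 to 86.6 TPM with UVB. The log2 fold change of Phlda3 was 0.45 in WT (adjusted p = 0.00608 in limma) and 0.37 in P1.hMR rats (adjusted p = 0.00281 in limma). Gdf15 and the ephrin receptor Epha2 did not pass, with -0.39 and 0.04 in WT and -0.13 and 0.06 in P1.hMR rats.

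**Figure D4:**
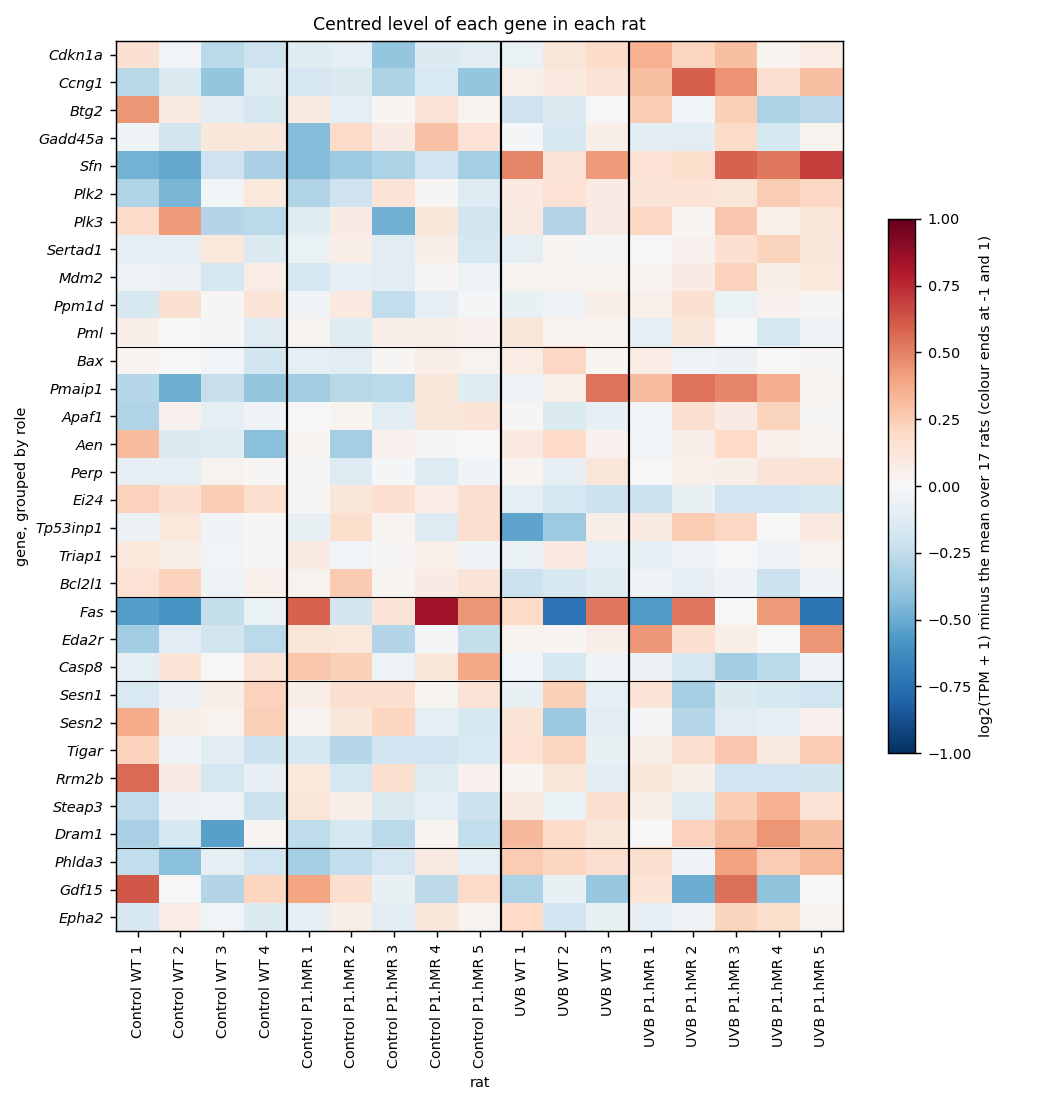
Centred level of the 32 genes (rows, by role) in the 17 rats (columns, by group), as log2(TPM + 1) minus the mean over all rats. Rows for Sfn and Ccng1 turn from blue to red with UVB, those for Ei24 and Bcl2l1 mostly from red to blue, and the row for Fas varies most within the groups.

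Between genotypes, no gene of the group was a DEG under UVB, against 0.0229% of all genes tested, or without UVB, against 0.00763%, and none in the interaction, against 0%. At an unadjusted p under 0.05 in limma, 2 of the 32 genes (6.25%) differed in each, namely Ccng1 and Tp53inp1 under UVB (background 10.3%), Ei24 and Fas without UVB (background 4.03%) and Ccng1 and Tp53inp1 in the interaction (background 6.92%). Groups did not overlap for Ccng1 alone under UVB (3.12%, background 5.87%) and for no gene without UVB (background 1.03%). Under UVB 23 of the 32 genes (71.9%) had the higher mean in P1.hMR rats, against 43.5% of all genes, with a median difference of 0.07 beside -0.02 over all genes. Without UVB 20 of 32 did (62.5%, background 48.9%), with a median of 0.03 beside -0.00226. The genotype comparisons share the rats of the UVB comparisons.

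The other genes of these pathways were taken from 6 lists. Of 33 tested other p53 targets, 1 was a DEG in WT rats, in the higher direction (3.03%, against 7.91% of all genes), and 3 in P1.hMR rats, 2 higher and 1 lower (9.09%, against 10.8%). These shares were below those of all genes. Ada, adenosine deaminase, rose from 3.64 to 4.13 TPM to 5.17 to 8.7 TPM in WT rats (log2 fold change 0.68, adjusted p = 0.00176 in limma) and by 0.86 in P1.hMR rats. Hbegf, an EGF receptor ligand, rose by 0.54 in P1.hMR rats (adjusted p = 0.0255 in limma), and had 0.20 in WT rats. This call of Hbegf was lost without any of 5 single rats, namely Control P1.hMR rats 1 and 3 and UVB P1.hMR rats 3, 4 and 5. Tp53i11, a p53-induced membrane protein, fell by 1.00 in P1.hMR rats (adjusted p = 0.0107 in limma), with -0.64 in WT rats, where UVB WT rat 1 at 29.91 TPM stood far above the other UVB WT rats at 8.69 and 9.03 TPM. Without that rat the fall of Tp53i11 in WT rats passed, with a log2 fold change of -1.19 (adjusted p = 0.00907 in limma).

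Of 22 tested regulators of p53, Chek2, a kinase of the DNA damage checkpoint, was a DEG in WT rats, from 4.79 to 6.33 TPM without UVB to 9.17 to 9.53 TPM with it (log2 fold change 0.62, adjusted p = 0.000433 in limma). In P1.hMR rats Chek2 passed the adjusted p with 0.45. It was the only DEG of the regulators in WT rats (4.55%, against 7.91% of all genes), and no regulator was a DEG in P1.hMR rats (0%, against 10.8%). By the adjusted p, 1 regulator was higher (background 11.2%) and 4 lower (background 10.3%) in WT rats. In P1.hMR rats 4 regulators were higher (background 18.5%) and 7 lower (background 20.6%). Of 14 other BCL2 family genes, 3 were DEGs in WT rats, all lower (21.4%, against 7.91% of all genes). They were Bik and Bcl2l11, the BH3-only killer proteins BIK and BIM, with -0.51 and -0.60, and Bnip3, a mitophagy receptor, with -0.51. In P1.hMR rats none was a DEG (0%, against 10.8% of all genes), but all 3 passed the adjusted p, with -0.50, -0.49 and -0.33. In P1.hMR rats Bik and Bcl2l11 lay just under the fold threshold, and each was a DEG in 7 of 30 alternatives, among them a pseudocount of 0.1 and the removal of any of 4 single rats. Their WT calls depended on single rats, Bik on Control WT rats 3 and 4 and UVB WT rats 2 and 3, Bcl2l11 on UVB WT rat 2 and Bnip3 on Control WT rat 3 and UVB WT rats 1 and 3, and without these rats they fell short of a threshold.

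Of 19 tested caspases and cofactors, 0 passed the adjusted p of limma upward in WT rats (background 11.2%) and 1 downward (background 10.3%). The P1.hMR comparison had 4 of the 19 passing upward (background 18.5%) and 2 downward (background 20.6%). Counting both directions, 21.5% of all genes passed in the WT and 39.1% in the P1.hMR comparison. The log2 fold changes of the 19 genes ran from -0.45 to 0.20 in WT rats and from -0.48 to 0.42 in P1.hMR rats, all under the fold threshold.

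Of 15 tested other genes of death receptor signalling, necroptosis and pyroptosis, 5 were DEGs in each genotype (33.3%, against 7.91% of all genes in the WT comparison and 10.8% in the P1.hMR comparison), and they were the same genes and directions. Gsdmc, a pore-forming gasdermin, rose from 4.69 to 7 TPM to 14.21 to 19.86 TPM in WT rats (log2 fold change 1.43, adjusted p = 0.000201 in limma), and by 1.43 in P1.hMR rats. Gsdma, the gasdermin of skin and sebaceous cells, fell by 1.03 in WT rats and by 0.82 in P1.hMR rats, from 65.99 to 124.79 TPM to 42 to 54.54 TPM in WT rats. Zbp1, a sensor of Z-form nucleic acids, fell by 0.76 and 1.30, and Tnfrsf12a, the receptor of TWEAK, rose by 0.78 and 0.80. Ripk3, the kinase of necroptosis, was named after its values were seen, and had 0.77 (adjusted p = 0.0398 in limma) and 0.78 (adjusted p = 0.00779). The WT call of Ripk3 was lost when any of the 4 Control WT rats, UVB WT rat 1 or UVB WT rat 2 was left out. Of 11 tested senescence genes and other CDK inhibitors, 1 was a DEG in WT rats, in the higher direction (9.09%, against 7.91% of all genes). In P1.hMR rats 3 were DEGs, all higher (27.3%, against 10.8%). By the adjusted p, 2 were higher (background 11.2%) and 1 lower (background 10.3%) in WT rats. For the P1.hMR comparison, 4 passed upward (background 18.5%) and 1 downward (background 20.6%). Cdkn1c, the inhibitor p57, rose by 1.08 in WT (adjusted p = 0.000115 in limma) and by 0.54 in P1.hMR rats (adjusted p = 0.00124). The latter call was lost without Control P1.hMR rat 3 or UVB P1.hMR rat 2. In P1.hMR rats the chemokine Cxcl1 rose by 1.16 (adjusted p = 0.0166 in limma) and the protease inhibitor Serpine2 by 0.86 (adjusted p = 0.000243), with 0.52 and 0.40 in WT rats, which did not pass. With muscle and hair covariates the WT calls of Chek2, Bik, Bcl2l11, Bnip3, Tnfrsf12a, Ripk3, Zbp1 and Gsdma and the P1.hMR calls of Ripk3 and Cxcl1 were lost, in a fit that called 296 genes in WT rats in place of 1036 and 1218 in P1.hMR rats in place of 1410. The errors were larger in that fit. For Ripk3 in WT rats the log2 fold change went from 0.77 (SE 0.25) to 0.87 (SE 0.43), for Zbp1 from -0.76 (SE 0.18) to -0.75 (SE 0.30) and for Bik from -0.51 (SE 0.12) to -0.34 (SE 0.20). For Cxcl1 in P1.hMR rats it went from 1.16 (SE 0.36) to 0.95 (SE 0.52).

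**Figure D5:**
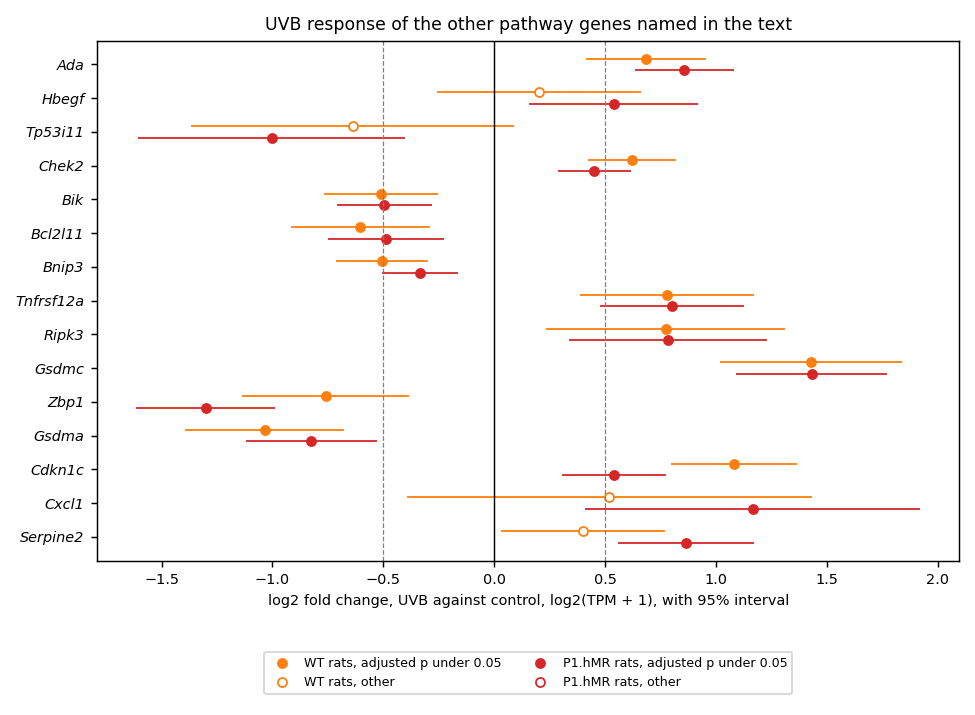
Log2 fold change of UVB against control on log2(TPM + 1), with its 95% interval, for 15 other genes of the pathways in WT (orange) and P1.hMR rats (red). Filled points have an adjusted p under 0.05 in limma, dashed lines mark -0.5 and 0.5, Gsdmc lies furthest to the right in both genotypes, and Gsdma and Zbp1 lie to the left.

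Markers of other cells and of division moved with UVB beside these genes. Of 19 mitosis markers, 12 were DEGs in WT rats and 13 in P1.hMR rats, all higher, and their sum was 221 to 296 TPM in the control rats of both genotypes and 316 to 507 TPM in the UVB rats. Of 9 macrophage markers, 5 were higher in each genotype, with sums of 93.3 to 170.0 TPM in control and 139 to 273 TPM in UVB rats. Of 12 hair markers, 8 were lower in WT rats and 6 in P1.hMR rats, with sums of 852 to 1740 TPM in control and 402 to 1111 TPM in UVB rats. The 5 basal keratinocyte markers held no DEG, although 2 passed the adjusted p upward in WT (background 11.2%) and 3 in P1.hMR rats (background 18.5%). They summed to 8038 to 10247 TPM in control and 8313 to 13370 TPM in UVB rats. Of 14 meibocyte markers, 1 was higher and 3 lower in WT, and 1 higher and 4 lower in P1.hMR rats. Of 7 suprabasal keratinocyte markers 1 was lower in each genotype, with sums of 4142 to 5030 TPM in Control WT, 4508 to 7029 TPM in UVB WT, 3687 to 4669 TPM in Control P1.hMR and 4575 to 5840 TPM in the UVB P1.hMR rats. Of 8 muscle markers 1 was lower in each genotype, and of 4 melanocyte markers 3 were lower in WT rats and 0 in P1.hMR rats. Of 4 tested T cell markers 2 were higher in each genotype, as was the 1 tested neutrophil marker, while 3 T cell and 5 neutrophil markers stayed under 1 TPM in every rat. The part of these cells in the results was not tested. In the fit with muscle and hair covariates, all 7 genes of the group that passed the adjusted p in WT rats and all 15 in P1.hMR rats kept their direction. Their SE was larger, by 1.48 to 1.70 times for the WT rats and by 1.32 to 1.52 times for the P1.hMR rats, and 5 of the 7 and 9 of the 15 no longer passed. Of these, 3 had a larger log2 fold change and 2 a smaller one in WT, and 3 a larger and 6 a smaller one in P1.hMR rats. For Bcl2l1 it went from -0.26 to -0.17 in WT rats and from -0.19 to -0.13 in P1.hMR rats, while for Pmaip1 in WT rats it went from 0.53 to 0.80.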

How the data were processed

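RNA of the MG of 17 rats was sequenced, and the authors deposited TPM values for 17251 genes, written with 2 decimals, with 1 column per rat. The study's methods name FastQC, STAR and RSEM, while the submitters' processing notes name FastQC, Trimmomatic, DRAGEN and Picard and the build rn7, and which of these made the table is not settled by the sources used here. Such values depend on how reads shared by related genes (Sesn1 and Sesn2, Plk2 and Plk3) were split, and strandedness was not given in the sources used here. TPM keeps no depth, so precision comes from the spread between rats. Per the study's reporting summary, a sample is a single eye or the pooled pair of 1 animal. The study's methods count the UVB groups in eyes, with more eyes than rats in each, and the control groups in rats. Which holds for each rat is not given in the sources used here.

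Here log2(TPM + 1) was fitted in limma 3.58.1 (R 4.3.3) with 4 group means and a variance trend, for the 13105 genes that reached 1 TPM in 3 or more rats, all 32 genes of the group among them. The two-sided p-values were adjusted over all genes by the Benjamini-Hochberg method. They weigh a difference between groups against the spread between rats within the 4 groups. The labels do not give the litters and batches of the rats. The paper's test needs counts and was not used. A DEG needed an adjusted p under 0.05 and a log2 fold change of 0.5 or more in size. The model was tested on simulated data. Figures and promoter matches were made in Python 3.11.15 with matplotlib 3.10.9.

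The members, the lists and the comparisons were chosen with earlier results of these data known. Per-rat values are given for genes called after UVB and for the smallest p of each genotype comparison and the interaction, and up to 4 called genes are named per other list by fold change, and any further one is marked. Some genes of the other lists are not reported here and are not in their counts. The alternatives were a pseudocount of 0.1, no filter, a mean of at least 5 TPM, 2 other scalings, muscle and hair genes left out or as covariates, only the 2 groups compared, no trend, sample weights, a replicate block, 2 other fold thresholds and each rat left out.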

Additional observations from a re-analysis of the deposited data

Results flagged for a closer look

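Within groups of 4 or 5 rats, 1 rat stood apart by Dixon's test for 8 of the genes described, out of 141 group values tested, where chance gives about 1 in 20, or 7.0. UVB WT, with 3 rats, was not tested in this way. Cdkn1a was at 153.53 TPM in Control P1.hMR rat 3, below the next rat at 182.63 TPM. Pml was at 6.55 TPM and Aen at 18.17 TPM in Control P1.hMR rat 2, where the next lowest rats had 7.37 and 23.12 TPM. After UVB, Ei24 was at 147.71 TPM in P1.hMR rat 2, above the next at 137.33 TPM, and Bcl2l1 at 57.6 TPM in P1.hMR rat 4, below the next at 63.41 TPM. Ada at 5.25 TPM and Hbegf at 10.11 TPM were high in Control P1.hMR rat 4, with the next rats at 3.87 and 7.47 TPM. Tp53i11 was at 31.02 TPM in Control P1.hMR rat 3, with the next at 18.23 TPM. Ei24 and Bcl2l1 stayed lower after UVB in P1.hMR rats without the rat that stood apart. Their causes were not tested.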

How the results depend on the processing

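Among 13 alternatives and 17 left-out rats, no called gene changed its direction. The cause of the changes below was not tested, apart from what a setting does by its construction. Without a fold threshold the genes called were 5 higher and 2 lower in WT and 11 higher and 4 lower in P1.hMR rats, and at a log2 fold change of 1 or more in size there were 0 in both. In WT rats the 2 higher DEGs became 1 at a mean of at least 5 TPM, with only the 2 groups compared and with muscle and hair covariates, and 1 to 3 with a rat left out. At a mean of at least 5 TPM only 26 of the 32 genes were tested, and Pmaip1 and Dram1 were not among them. The WT median was 0.034 at a mean of at least 5 TPM, 0.080 with the covariates and 0.047 to 0.083 with a rat left out. By the adjusted p alone, the 5 higher genes in WT rats became 3 at a mean of at least 5 TPM, 3 with only the 2 groups compared, 1 with the covariates and 3 to 6 with a rat left out, and the 2 lower became 1 with only the 2 groups compared and 1 with the covariates. In P1.hMR rats 6 genes passed as higher with the covariates in place of 11, and 1 as lower in place of 4. Plk3 was among these 6 but not among the 11 (adjusted p = 0.0478 with the covariates and 0.164 without, in limma). Genotype under UVB gave 0 to 1 called genes with a rat left out. Correlations of same-numbered rats' deviations ran from -0.19 to 0.05 in the UVB comparisons, from -0.13 to 0.06 between genotypes under UVB and from 0.04 to 0.24 without UVB, where 3 of 4 pairs were over 0.1. In no comparison were all pairs over 0.1, so the numbers were not taken to pair the rats, and the replicate block gave 3 higher DEGs in WT rats and 3 in P1.hMR rats. The depth of each rat is unknown, and with 3 UVB WT rats smaller changes are less detectable.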
